A study of Mus musculus with 28 samples.

Results

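The 31 genes described here mostly encode proteins that take up, activate and burn fatty acids and make ketone bodies. Among them are also the regulator Ppara and Pex11a, which acts in peroxisome division. The genes were chosen by name, with earlier results of these data known, and all 31 are among the 33856 gene rows of the table of hepatocyte pairs. The question was how their transcripts are distributed along the liver lobule, and whether mitochondrial and peroxisomal enzymes differ in this.

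Each well of that table held a hepatocyte sorted together with an attached CD31+ cell, from C57BL/6 male mice that carried no transgene or treatment named in the labels, 1 aged 6 weeks and 2 aged 7 weeks. The mice had been fasted for 2 hours in the morning and were anesthetized with ketamine and xylazine before collagenase perfusion of the liver. The 17 libraries of 4621 pairs were sequenced by MARS-seq, in which each sorted well gets its own barcode and mRNA 3' ends are counted by unique molecular identifiers (UMIs). A second table holds single non-parenchymal liver cells from 11 libraries of 2 mice aged 3 and 4 months, also fasted for 2 hours.

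Fatty acids are burned in mitochondria by repeated removal of acetyl-CoA, after transfer of long chains across the inner membrane as carnitine esters. Peroxisomes shorten very long and branched chains and pass the products on to mitochondria. In the liver much of the acetyl-CoA is turned into ketone bodies, and the nuclear receptor PPAR-alpha induces genes of both organelles during fasting.

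PPAR binds DNA with its partner RXR at a direct repeat of the half-site AGGTCA with 1 free base between the copies, an element that other nuclear receptors use too. RefSeq promoters (GRCm38.p6, 250 bases before to 50 after the start) were searched for it on both strands, with at most 2 mismatches over the 12 fixed letters. It found a match in 3 of 28 member promoters (10.7%) and in 3.86% of all 32851 promoters of the same length. The matches are shown because they are the member promoters that hold the repeat. They are in capitals on the gene's strand, and have 1 mismatch in Fabp1 and 2 in Echs1 and in Etfa.
Fabp1 (chr6:71199772-71199864, plus strand): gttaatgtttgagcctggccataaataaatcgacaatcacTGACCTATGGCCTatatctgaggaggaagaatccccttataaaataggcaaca
Echs1 (chr7:140116452-140116544, minus strand): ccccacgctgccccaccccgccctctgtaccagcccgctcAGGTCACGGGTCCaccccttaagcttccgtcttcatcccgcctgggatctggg
Etfa (chr9:55512268-55512360, minus strand): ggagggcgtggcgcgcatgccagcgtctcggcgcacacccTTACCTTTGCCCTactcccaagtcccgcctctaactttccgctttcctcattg
The half-site AGGTCA alone was present in 6 of the 28 promoters (21.4%) and in 16.3% of all promoters. Promoters were found for 26 of the 31 genes. The 5 peroxisomal enzyme promoters in that table held neither motif within these letters, which says nothing about sites elsewhere. Fabp1, Echs1 and Etfa were not among the genes called different along the lobule below.

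Pairs were placed by the pericentral genes Cyp2e1, Cyp2c29 and Oat against the periportal genes Cyp2f2 and Hal. Pairs had to hold 1000 UMIs or more, 20 of them from these 5 genes, and the 4321 that did were ordered into 6 layers of equal size, layer 1 next to the central vein, and layers 1 and 2 (1441 pairs) were compared with layers 5 and 6 (1440 pairs). Levels are UMIs per 1000000 gene UMIs. Well names do not give library or mouse, so the table is 1 sample, no p-value is given, and the 95% intervals cover counting error only. A gene was called when its log2 ratio of levels between these outer zones was at least 0.322 in size with an interval that excluded 0. Genes with 30 UMIs or more over both zones were tested (11397).

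Median depth was 9940 UMIs per pair in layer 1 and 12301.5 in layer 6. The well numbers form 17 runs the size of a plate, called blocks here, and ranges over blocks use the 15 that held 100 pairs or more. Directions are counted over blocks where the gene had 10 UMIs or more. Hepatocyte markers were abundant in both zones, with Alb at 44308 pericentrally and 87065 periportally. Markers of other cells were also compared: the 10 endothelial markers summed to a level of 481 pericentrally and 511 periportally, 6 Kupffer cell markers to 4.37 and 6.13, and 6 stellate cell markers to 51.0 and 42.6. The 5 cholangiocyte markers summed to 2.69 and 15.5, with Krt19 and Krt7 at 0 UMIs, 4 T or NK cell markers had 1 UMI in each zone, and 3 B cell markers had 2 and 0. The 3 erythroid markers summed to 113 and 106, nearly all from Alas2, while Hba-a1 had 0 and 1 UMIs and Hbb-b1 1 and 1. The 2 cycling markers summed to 6.56 and 4.07. Their part in the results below was not tested, except as follows. Pairs with at least 2 UMIs of Kupffer, cholangiocyte, stellate, T or NK, or B cell markers were left out. Among the remaining 3668 pairs 16 members and 15.3% of all tested genes were called pericentral, against 15 and 16% with all pairs.

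Acadl, Hadh and Hadha each stood apart in a single block. Acadl had a level of 1075 in block 14, and between 209 and 283 in the other 14 blocks. Hadh had 1463 in block 7 and at most 488 in the others, and Hadha 777 in block 41 and at most 342 in the others. These levels were 3.80, 3.00 and 2.27 times those of the next block. Among 4934 well-detected genes (1000 UMIs or more), 1.01% had a block at least 2-fold above the next, so the values of these 3 genes are given with and without the 3 blocks.

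**Figure D1:**
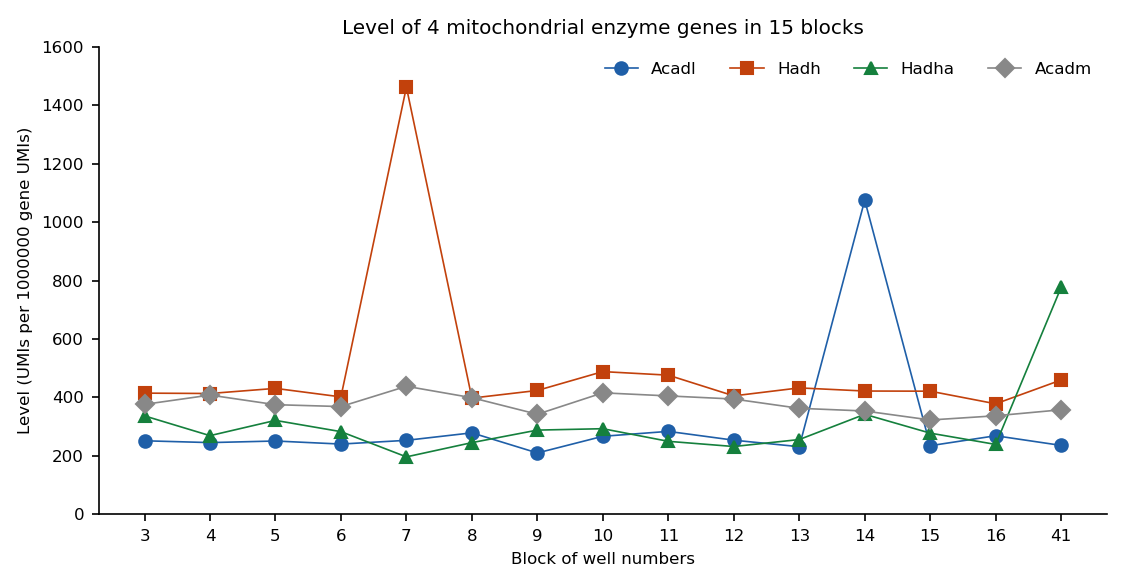
Level (UMIs per 1000000 gene UMIs, vertical axis) of Acadl, Hadh, Hadha and, for comparison, Acadm in each of 15 blocks of well numbers (horizontal axis). Acadl is high in block 14 alone, Hadh in block 7 and Hadha in block 41, while Acadm stays between 322 and 438.

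Of the 31 genes, 15 (48.4%) were called higher in the pericentral zone, where 16% of all tested genes were, and 0 were called higher in the periportal zone, where 5.97% of all tested genes were. All 31 had a log2 ratio above 0, as did 64.9% of all tested genes. The median of the members was 0.32 and that of all tested genes 0.10. At 1.5-fold, 5 members were called pericentral and 0 periportal, beside 6.69% and 3.42% of all tested genes. Alb took 4.13% of the UMIs in layer 1 and 9.35% in layer 6, and its part in the scale of the totals was not tested. With median-of-ratios size factors, under which the median of all tested genes was -0.01 in place of 0.10, 9 members were called pericentral, and 27 were above 0. The share of all genes called was then 9.32% pericentral and 9.88% periportal. The 4 genes below 0 under that scaling were Acsl5, Hadha, Cpt1a and Slc27a2.

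**Figure D2:**
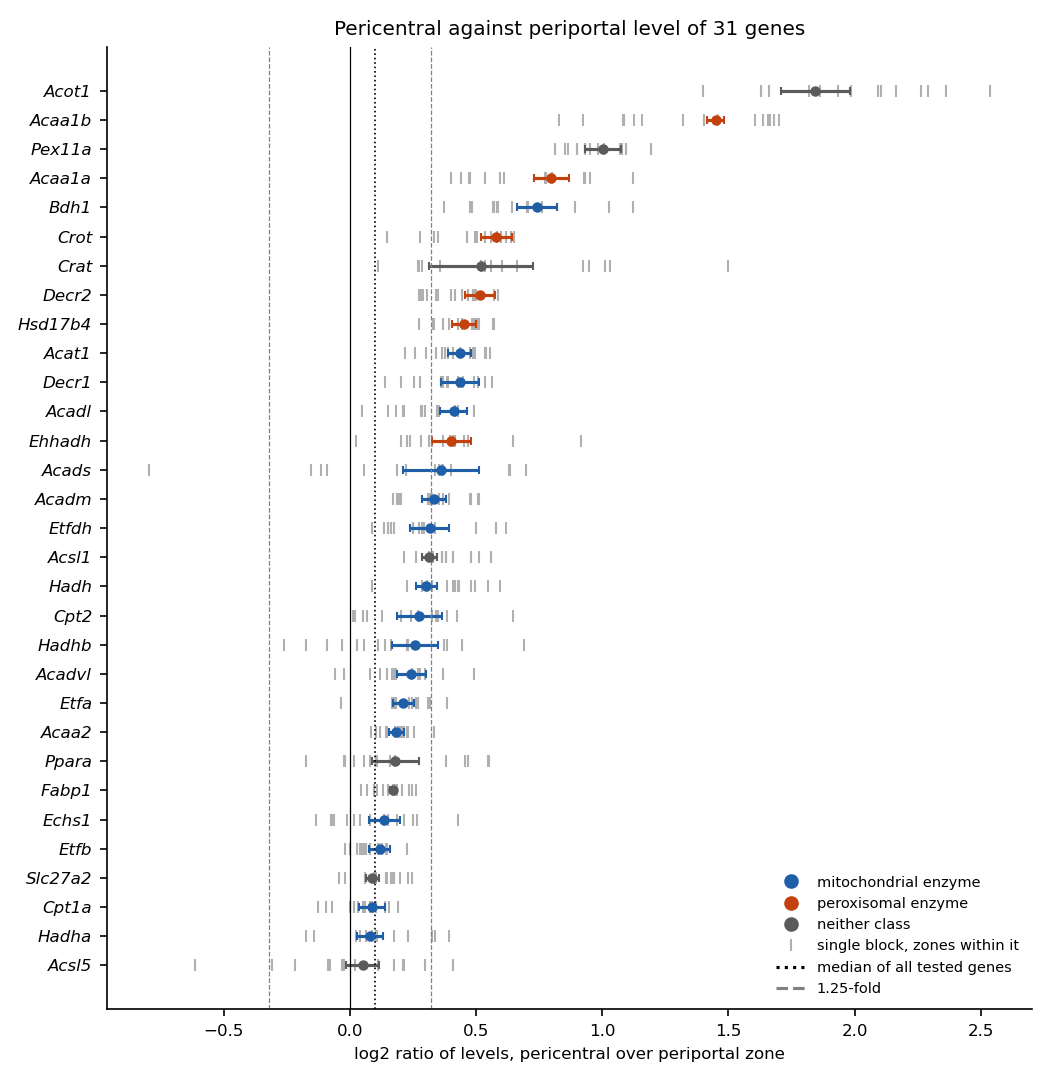
Log2 ratio of levels, pericentral over periportal zone, for the 31 genes (dots with 95% counting intervals) and within each of 15 blocks (grey ticks), ordered by size. The dotted line is the median of all tested genes (0.10) and the dashed lines mark the limit for a call. Acot1, Acaa1b, Pex11a and Acaa1a lie furthest to the right, and no gene has a pooled value left of 0, while single blocks of 11 genes do.

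Uptake and activation come first in the pathway. Fabp1, the liver fatty acid binding protein that carries fatty acids through the cytosol, had levels of 10936, 10442, 10577, 9801, 9737 and 9257 in layers 1 to 6. Its log2 ratio between the outer zones was 0.17 (interval 0.16 to 0.18), under the limit, and lay between 0.04 and 0.26 within the blocks. Slc27a2, a fatty acid transport protein with very-long-chain acyl-CoA synthetase activity, had 1286 pericentrally and 1209 periportally (log2 ratio 0.09). Acsl1, the main long-chain acyl-CoA synthetase of liver, had 1040 and 836 (log2 ratio 0.31, interval 0.28 to 0.34), just short of the limit. It was called when zones were taken within blocks (0.37) and without block 4, 5, 6 or 13. Acsl1 stayed uncalled in 11 of 16 alternatives. Acsl5, a second synthetase, had 200 and 193, with an interval that included 0 (-0.02 to 0.12). None of these 4 genes was called.

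Of the 3 carnitine enzymes outside the peroxisomal class, Cpt1a was close to even. Cpt1a, which makes acylcarnitine and is the controlled entry step, had levels of 329, 321, 314, 309, 309 and 302 in layers 1 to 6, and a log2 ratio of 0.09 (interval 0.04 to 0.14) that lay between -0.13 and 0.19 within the blocks. This is no higher than the median of all tested genes. Cpt2, which releases the acyl group inside the mitochondrion, had 122 and 101 (log2 ratio 0.27, interval 0.19 to 0.36), higher pericentrally in 15 of 16 blocks. It was not called, but was for layer 1 against layer 6 (0.42), with pairs thinned to 1000 UMIs (0.36) and without pairs holding markers of other cells (0.33). Crat, carnitine acetyltransferase, found in both organelles, had 25.1 and 17.5 (log2 ratio 0.52, interval 0.31 to 0.73) and was called, from 447 and 348 UMIs, though not with thinned pairs.

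The 10 genes of the mitochondrial oxidation spiral had a median log2 ratio of 0.28, and 4 were called. The acyl-CoA dehydrogenases do the first step for chains of different length. Acadvl, for very long chains, had 279 and 236 (log2 ratio 0.24) and was not called. Acadl, for long chains, had 343 and 258 (0.41) and was called, but it had 0.32 without blocks 7, 14 and 41 and 0.24 with zones within blocks, and was called under neither. Acadl kept its call in 11 of 16 alternatives. Acadm, for medium chains, had levels of 427, 404, 385, 356, 339 and 319 in layers 1 to 6 and a log2 ratio of 0.33 (interval 0.28 to 0.38) with the same direction in 17 of 17 blocks. It lay just past the limit and kept its call in 9 of 16 alternatives, with values down to 0.22 (size factors). It also lost it without block 6 or without block 41. Acads, for short chains, had 44.2 and 34.4 (0.36), and kept its call in only 6 of 16 alternatives, with -0.0010 in thinned pairs, and lost it without block 4.

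The later steps of the spiral and the handling of unsaturated chains follow. Echs1, the short-chain hydratase, had 237 and 216 (log2 ratio 0.14). Hadha and Hadhb encode the 2 subunits of the trifunctional protein, which handles long chains, and had log2 ratios of 0.08 and 0.26. Without blocks 7, 14 and 41 Hadha had 0.14. Hadh, the short-chain hydroxyacyl-CoA dehydrogenase, had 534 and 433 (0.30) and was not called. Hadh was called without block 7 (0.41), without block 13 and without blocks 7, 14 and 41 (0.42). It stayed uncalled in 11 of 16 alternatives. Acaa2, the mitochondrial thiolase, had 995, 955, 952, 891, 872 and 842 in layers 1 to 6, a log2 ratio of 0.18 with the same direction in 17 of 17 blocks. Decr1, which processes unsaturated chains, had 177 and 131 (0.43, interval 0.36 to 0.51) and was called, in the same direction in 17 of 17 blocks, though not with size factors (0.32).

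The electron transfer genes pass electrons from the acyl-CoA dehydrogenases to the respiratory chain, and none of the 3 was called. Etfa had a log2 ratio of 0.21, Etfb 0.12 and their oxidoreductase Etfdh 0.32. Etfdh was just under the limit and was called without block 7, 8, 11 or 15. It stayed uncalled in 13 of 16 alternatives.

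Both ketone body genes among the members were called. Acat1, the thiolase that joins 2 acetyl-CoA, had levels of 509, 495, 477, 423, 403 and 341 in layers 1 to 6 (log2 ratio 0.43, interval 0.39 to 0.48). Acat1 was not called with size factors (0.32), with thinned pairs (0.24) or in deeper pairs, those with at least 5000 UMIs and 100 placement UMIs (0.25). The placement limit can select by position as well as depth, since Cyp2e1 had a level of 10635 pericentrally and Cyp2f2 2562 periportally. Zones were cut anew among the deeper pairs, and which part of the lobule they cover was not recorded. Bdh1, which interconverts acetoacetate and beta-hydroxybutyrate, had 184, 177, 161, 144, 123 and 93.9, which gave the largest log2 ratio of the 17 mitochondrial enzymes (0.74, interval 0.66 to 0.82, and 0.37 to 1.12 within the blocks). Bdh1 was higher on the pericentral side in 16 of 16 blocks.

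All 6 peroxisomal enzymes were called higher in the pericentral zone. Acaa1b, a peroxisomal thiolase, had levels of 1534, 1339, 1271, 865, 599 and 452 in layers 1 to 6. Its log2 ratio was 1.45 (interval 1.42 to 1.48), with values from 0.83 to 1.70 within the blocks, so it was higher on the pericentral side in each. Its neighbour Acaa1a had 255, 228, 210, 176, 148 and 129 and a log2 ratio of 0.80 (interval 0.73 to 0.87). The last 500 bases of the Acaa1a transcript share 42.1% of their 50-base stretches with Acaa1b transcripts, in GENCODE sequences, so reads of this pair may have been split between them and their single values are uncertain.

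The other peroxisomal enzymes had smaller ratios. Crot, the carnitine octanoyltransferase that exports shortened chains, had 280 and 187 (log2 ratio 0.58, interval 0.52 to 0.64). Decr2, the peroxisomal dienoyl-CoA reductase, had 290 and 203 (0.52). Hsd17b4, the D-bifunctional protein, had 452 and 331 (0.45), and Ehhadh, the L-bifunctional protein, 164 and 124 (0.40, interval 0.32 to 0.48). Hsd17b4 and Decr2 had the same direction in 17 of 17 blocks, Ehhadh in 16 of 16 and Crot in 16 of 17. Ehhadh was not called with size factors (0.29), centred on all genes (0.30), with thinned pairs (0.13) or in deeper pairs (0.26). Hsd17b4 was not called in deeper pairs (0.32).

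Among the members, the classes differed in how steeply they fell toward the portal side. The 6 peroxisomal enzymes had a median log2 ratio of 0.55 and the 17 mitochondrial enzymes one of 0.27, with 6 of 6 and 6 of 17 called. Within each of the 15 blocks the peroxisomal median (0.40 to 0.78) was above the mitochondrial one (0.17 to 0.31). The ranges of single genes overlapped, since Bdh1 (0.74) exceeded 4 of the peroxisomal enzymes and Ehhadh (0.40) lay below Acat1, Decr1 and Acadl. The contrast covers the members alone, because the wider list of genes below was not sorted into these classes. On that list, the peroxisomal Acot3 and Abcd2 had 2.04 and -0.51, and the mitochondrial carrier Slc25a20 had 0.46. Peroxisomal Acot8 and Cat there had 0.76 and 0.05, and mitochondrial Hsd17b10 and Acadsb had 0.82 and 0.03. Acot8, Cat, Hsd17b10 and Acadsb were picked after their values were seen, to show that both organelles had steep and flat genes. Whether the contrast holds on that list was not tested. Summed UMIs of peroxisomal enzymes were 0.517, 0.482, 0.473, 0.390, 0.331 and 0.296 times those of mitochondrial enzymes in layers 1 to 6. Between the outer zones that ratio was 1.59-fold higher pericentrally (log2 0.67, interval 0.64 to 0.69), and 0.34 to 0.82 on the log2 scale within the blocks. Acaa1b led this sum: without Acaa1a and Acaa1b the log2 value was 0.24, and it was 0.27 without the most abundant gene of each class. UMIs per pair are the same sums divided by the number of pairs. The order of the genes is then fixed, so these values add no separate evidence. Acaa1b had 17.7 UMIs per pericentral pair and 7.23 per periportal pair, Hsd17b4 5.60 and 4.57, Acaa2 12.1 and 11.8, and Cpt1a 4.02 and 4.22. Like Cpt1a, the genes Slc27a2, Acsl5, Echs1, Hadha and Etfb had more UMIs per periportal pair.

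**Figure D3:**
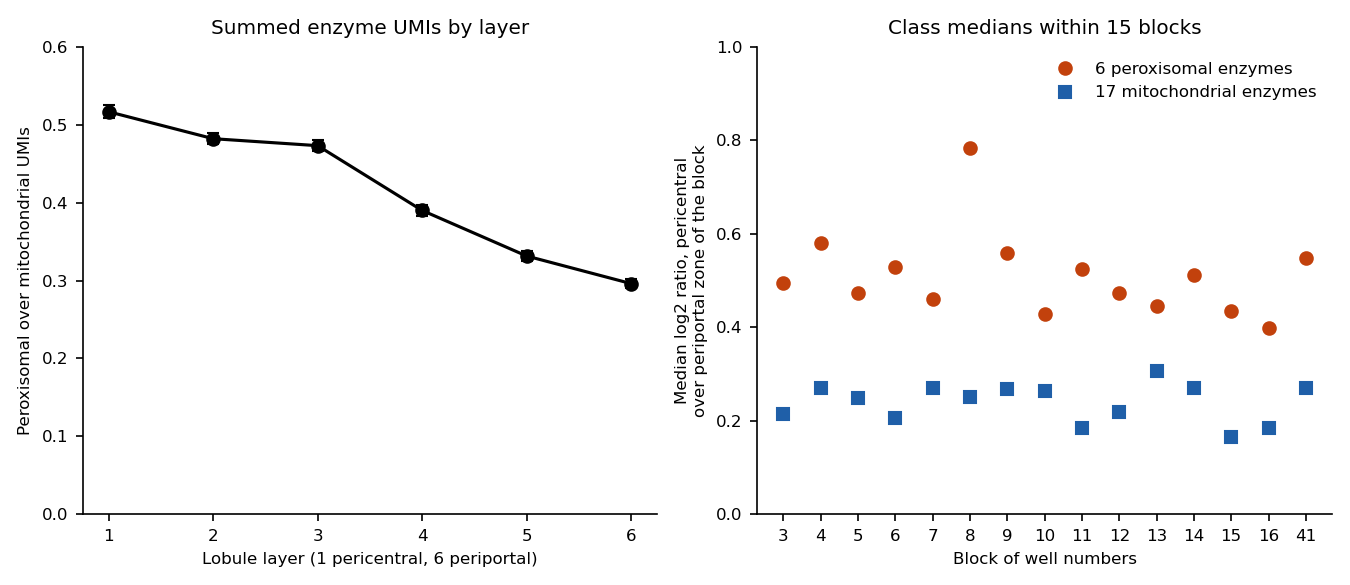
Left, summed UMIs of 6 peroxisomal enzymes over those of 17 mitochondrial enzymes in 6 lobule layers, with 95% counting intervals. The ratio goes from 0.517 in layer 1 to 0.296 in layer 6. Right, median log2 ratio of each class, pericentral over periportal zone, within each of 15 blocks of well numbers. The peroxisomal median is the higher in every block.

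The 8 members outside both classes had a median log2 ratio of 0.25, from 0.05 for Acsl5 to 1.84 for Acot1, and 3 were called. Acot1, a cytosolic acyl-CoA thioesterase, had levels of 107, 97.9, 93.2, 54.7, 38.0 and 19.6 in layers 1 to 6. Pericentral pairs held 1822 of its UMIs and periportal pairs 566 (log2 ratio 1.84, interval 1.71 to 1.98), with values from 1.40 to 2.54 within the blocks. Acot1 was detected in 44.7% of pairs. Its last 500 bases share no 50-base stretch with Acot2, Acot3 or Acot4. Pex11a, a membrane protein that promotes division of peroxisomes, had 271, 231, 223, 156, 139 and 111 in layers 1 to 6, with a log2 ratio of 1.003 (interval 0.93 to 1.07) that lay between 0.81 and 1.19 within the blocks. Ppara, the gene of PPAR-alpha itself, had 107 and 94.3 (log2 ratio 0.18, interval 0.09 to 0.27), was not called, and ranged from -0.17 to 0.55 within the blocks.

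**Figure D4:**
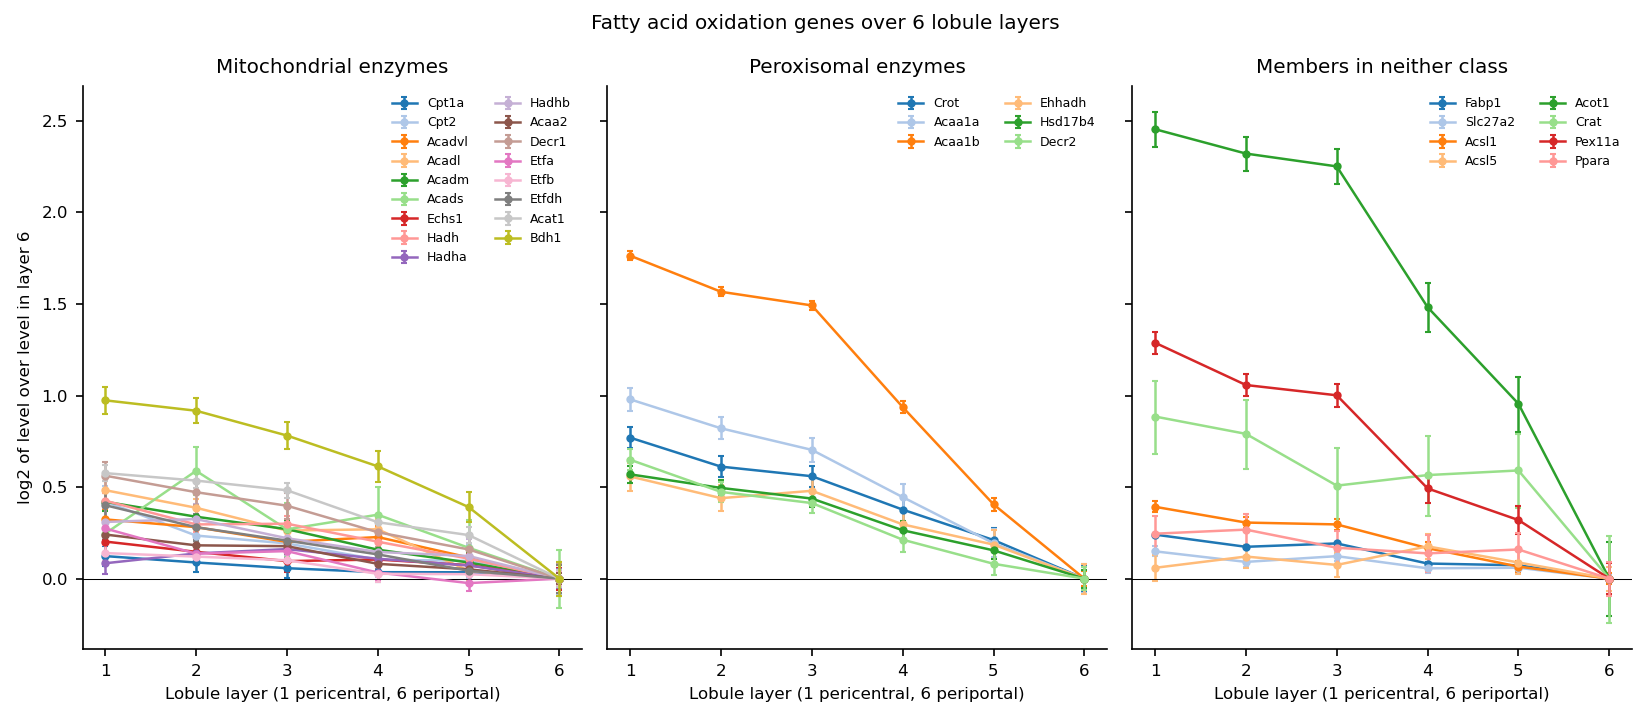
Level of each gene in 6 lobule layers as log2 of its ratio to layer 6, with 95% counting intervals, for mitochondrial enzymes, peroxisomal enzymes and the remaining genes. Most mitochondrial curves stay below 0.5, while Acaa1b, Pex11a and Acot1 exceed 1 in layer 1 and all 3 end at 0 in layer 6 by construction.

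Most members were highest at the central end of the lobule and lowest at the portal end. The lowest level was in layer 6 for 30 of the 31 genes, and in layer 5 for Etfa. The highest level was in layer 1 for 26 genes. The shares of all tested genes with these highest or lowest layers were not computed. Of all tested genes, 64.9% had a log2 ratio above 0. Acads alone had a peak inside the lobule, in layer 2, with an interval apart from both end layers. The border between layers 1 and 2 depended on the order of pairs that had no periportal placement UMI (1225 pairs). Whether the Acads peak holds under another order of these pairs was not recorded. Of all tested genes 1.54% had such a peak and 0.342% a trough. Acaa1b and Acot1 lost more of their level between layer 3 and layer 5 than over the other steps together. Acaa1b went from 1271 to 599 and Acot1 from 93.2 to 38.0, while Acadm went from 385 to 339.

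Other genes of the pathway were taken as a list of 83, of which 82 were in the table and 76 had enough UMIs. Of these 76, 38 (50%) were called pericentral and 7 (9.21%) periportal, beside 16% and 5.97% of all tested genes. The median was 0.33. Among genes with 100 UMIs or more the largest pericentral ratios were those of the fatty acid omega-hydroxylases Cyp4a10 (2.07, 5130 UMIs against 1366), Cyp4a14 (1.83) and Cyp4a12b (1.46), the peroxisomal thioesterase Acot3 (2.04, 247 against 67) and the pantetheinase Vnn1 (1.76). Cyp4a12b shares sequence with Cyp4a12a (37.0% of the 50-base stretches in the last 500 bases of the Cyp4a12a transcript), so its value is uncertain. Cyp4a12b also stood apart in block 10, with a level of 449.6 against at most 114.9 in the other blocks, and had 1.501 without that block. No other tested gene of the list had a block 2-fold above the next.

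Transport into the mitochondrion and fuel choice were also on the list. Slc25a20, the carnitine carrier of the inner membrane, had 168 and 122 (0.46) and was called. Pdk4, a kinase that restrains glucose oxidation, had 106 UMIs pericentrally and 50 periportally (1.24), and 5 of 6 blocks had that direction.

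The 7 periportal calls were no enzymes of the mitochondrial oxidation spiral. Slc16a6, a monocarboxylate transporter linked to ketone body export, had 21 UMIs pericentrally and 144 periportally (log2 ratio -2.62, interval -3.35 to -1.95), and was lower pericentrally in 8 of 8 blocks with enough UMIs. Slc16a1, another monocarboxylate transporter, had -0.50, whereas Slc16a7, also of that family and on the list, was called pericentral (888 and 579 UMIs, 0.78, 16 of 16 blocks). Slc16a7 was added to the named genes after its values were seen. Ppargc1a, a coactivator of PPAR-alpha, had 185 and 555 UMIs (-1.43, interval -1.67 to -1.18) with the same direction in 15 of 15 blocks, and Ppargc1b had -0.69. The synthetase Acsl3 (-0.52) and the peroxisomal transporter Abcd2 (-0.51) were also periportal. Fgf21, a fasting hormone, had 19 and 66 UMIs (-1.64), and only 1 block held at least 10 of them.

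**Figure D5:**
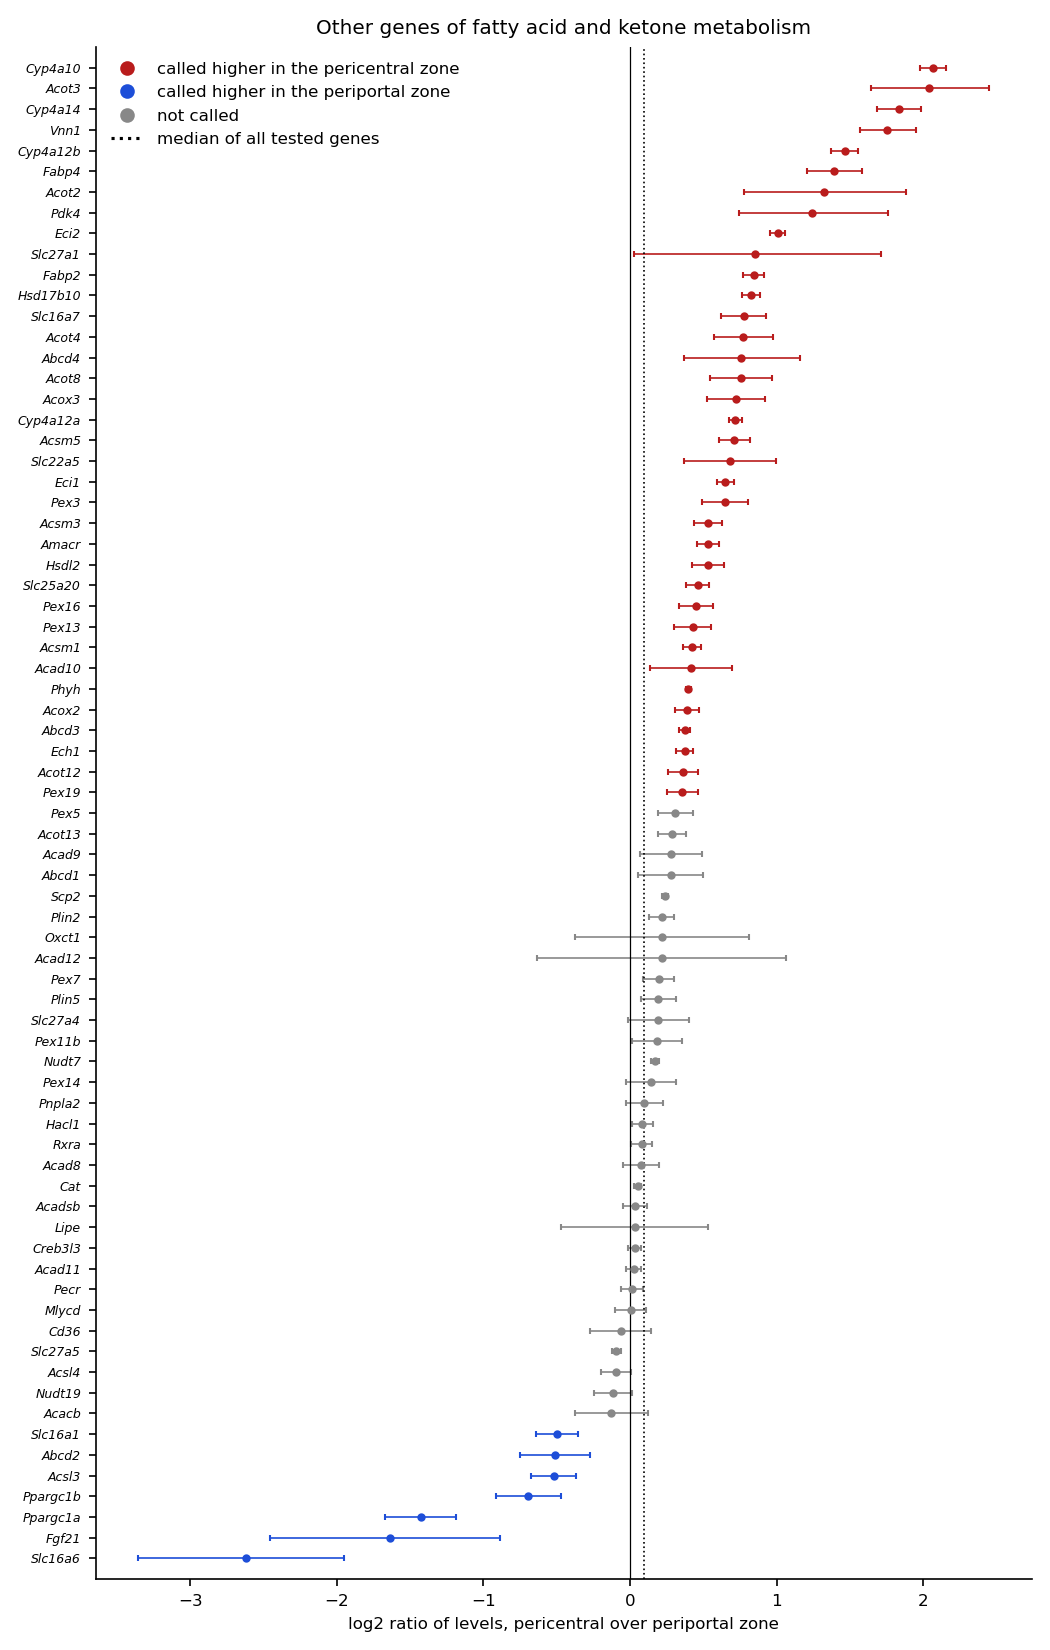
Log2 ratio of levels, pericentral over periportal zone, with 95% counting intervals for 73 of the 76 tested genes of the wider list, coloured by call. The 36 pericentral calls shown reach 2.07 for Cyp4a10, and the 7 periportal calls reach -2.62 for Slc16a6.

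The single non-parenchymal cells showed how far the members are found outside hepatocytes. In 2692 cells with at least 300 UMIs their levels ranged from 3.85% of the level in pairs for Fabp1 to 85.7% for Crat, with a median of 19.1%. Alb, which should be absent from these cells, was at 7.29% of its level in pairs. Bdh1 (6.40%), Acaa1b (6.50%) and Slc27a2 (5.12%) lay below that of Alb, and Hadhb (69.4%), Acsl5 (64.4%), Acadl (44.0%) and Cpt1a (40.1%) above it. These cells came from other and older mice.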

How the data were processed

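The deposited tables hold counts: whole UMIs per gene symbol and well, without normalization by the authors. The submitters' processing notes name bcl2fastq 2.15.0.4 and mm9. How reads were aligned, and to which annotation, is not given in the sources used here. Rows of the 92 ERCC spike-ins were left out. The score of a pair was the sum of pericentral placement UMIs over its mean, divided by that plus the periportal sum over its mean. Pairs with equal scores were ordered by the share of placement UMIs, pericentral minus periportal, a rule set after layer values had been seen. It bears mainly on layers 1 and 2. The 300 pairs left out had a median of 4224.5 UMIs, and 2057 pairs lay within 0.05 of a limit of the zones (0.966 and 0.363). UMIs were summed over pairs. Intervals are exact Poisson for levels and exact conditional binomial for ratios (scipy 1.17.1, Python 3.11.15). The code was tested on simulated data. The interval of the class ratio uses a normal approximation of Poisson counts. Blocks are stretches of 384 well numbers and may be plates. No source ties them to libraries or mice, so no test across mice was made. All members are named, with the 5 largest folds in each direction of the wider list among genes with at least 100 UMIs and genes fixed by name, some of which are not reported here but stay in the counts. The members and lists were chosen with earlier results of these data known. A search for targeting signals in the proteins was planned and not made. Alternatives changed the placement genes, zones, scaling, weight of pairs, depth, filters, fold and blocks.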

Additional observations from a re-analysis of the deposited data

How the results depend on the processing

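No paired analysis was possible because the wells carry no mouse label. Across 16 alternatives that kept the fold limit and 17 settings that each left out 1 block, no member was called periportal, and Acot1, Acaa1b, Pex11a, Acaa1a, Bdh1, Crot and Decr2 were called pericentral in each. Of the 31 members 28 were above 0 with thinned pairs, and 30 with each pair weighted equally and in deeper pairs. The count of pericentral members was 15 beside 16% of all tested genes, 9 beside 9.32% with size factors and 5 beside 6.69% at 1.5-fold. With a block left out it was 14 to 17, beside 14.8% to 16.3% of all tested genes. It was 10, beside 9.21%, with at least 5000 UMIs and 100 placement UMIs per pair, which kept 2017 pairs. Depth and position of the pairs cannot be told apart in that last setting. Beside 0.27, the mitochondrial median was 0.21 with pairs split at the median score, 0.32 for layer 1 against layer 6, 0.16 with size factors, 0.18 centred on all genes and 0.22 in the deeper pairs. Beside 0.55, the peroxisomal median was in the same order 0.43, 0.71, 0.44, 0.45 and 0.39, and 0.46 with zones within blocks and 0.67 with pairs thinned to 1000 UMIs. The log2 ratio of class sums was 0.38 in the deeper pairs, 0.27 without the most abundant gene of each class and 0.24 without Acaa1a and Acaa1b. Acads had -0.0010 with thinned pairs. The count of 1 member with a peak or trough inside the lobule was 0 under each change of placement genes, with layers within blocks and with thinned pairs, 4 with size factors, 3 when centred, 3 with a random order of equal scores, chosen after seeing the data, and 0 to 2 with a block left out; it was not computed for changes of zones, weight, gene filter or fold. Of the wider list, 24 genes were pericentral and 4 periportal at 1.5-fold, beside 6.69% and 3.42% of all tested genes. With thinned pairs 4 of its genes were periportal, beside 4.47% of all tested genes. The members summed to a level of 2321 in single cells, and 2082 in those with at least 1000 UMIs. Leaving out blocks 7, 14 and 41 was also chosen after seeing the data. The causes were not tested. With no map to mice, differences between mice could not be separated from these values, and genes with few UMIs, such as Fgf21, are limited by depth.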
